A study of Mus musculus with 8 samples.

Results

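The lipid droplet coat and lipolysis genes described here are the perilipins Plin1, Plin2, Plin3, Plin4 and Plin5, the CIDE genes Cidea and Cidec, and the triglyceride lipase Pnpla2 with its regulators G0s2 and Abhd5. These 10 genes were chosen by name, all 10 were among the 22173 genes of the deposited table, and all 10 were among the 12963 genes with enough counts to be tested. They were measured by RNA sequencing of whole skeletal muscle from diet-induced obese C57BL/6 mice that were 24 weeks old when they were divided into groups. The liraglutide group (4 libraries) received the GLP-1 receptor agonist liraglutide at 0.2 mg/kg per day by subcutaneous injection for 9 weeks, and the group called model (4 libraries) was likewise made obese by diet and received saline. Each group was assigned 8 mice, and each library carried the code of a different animal. No lean or pair-fed muscle was analysed here, and which muscle was taken is not given in the sources used here.

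Lipid droplets are stores of triglyceride and cholesterol ester wrapped in a phospholipid monolayer, and the perilipins are the proteins that coat it. Plin1 and Cidec are the coat and fusion proteins of the large droplet of a fat cell: Plin1 keeps lipases away until it is phosphorylated, and Cidec passes lipid from smaller droplets into larger ones. Muscle fibres hold small droplets beside their mitochondria, coated mainly by Plin2, Plin3 and Plin5, of which Plin5 also ties the droplet to the mitochondrion. Pnpla2, also called ATGL, cuts the first fatty acid from a triglyceride, Abhd5 (CGI-58) activates it and G0s2 inhibits it. Many of these genes are known targets of the PPAR family of fatty acid sensors, and Plin1 and Cidec are also genes of the fat cell programme run by PPAR gamma and C/EBP alpha.

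The start-site windows of the 4 genes compared below, Plin1 and Cidec for the fat cell droplet and Plin5 and Plin2 for the muscle droplet, are shown because they differed in which of these factors' short motifs they held. The windows come from RefSeq (GRCm38.p6), run from 250 bases before to 50 bases after an annotated start, and read along the gene's own strand, which is the minus strand for all 4. They are Plin1 at chr7:79732727-79733026, the downstream start of Cidec at chr6:113434715-113435014, the upstream start of Plin5 at chr17:56117499-56117798, and Plin2 at chr4:86670010-86670309. Capitals mark the C/EBP motif TTGCNNAA in Plin1 and Cidec, and the hexamer AGGTCA, the core of PPAR response elements, in Plin5 and Plin2, where Plin2 carries it on the other strand as TGACCT.
Plin1: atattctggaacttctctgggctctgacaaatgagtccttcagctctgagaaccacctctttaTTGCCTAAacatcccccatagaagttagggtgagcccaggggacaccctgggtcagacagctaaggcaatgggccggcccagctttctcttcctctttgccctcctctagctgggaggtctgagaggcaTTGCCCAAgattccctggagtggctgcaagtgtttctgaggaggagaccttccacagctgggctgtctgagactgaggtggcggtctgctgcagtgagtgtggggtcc
Cidec: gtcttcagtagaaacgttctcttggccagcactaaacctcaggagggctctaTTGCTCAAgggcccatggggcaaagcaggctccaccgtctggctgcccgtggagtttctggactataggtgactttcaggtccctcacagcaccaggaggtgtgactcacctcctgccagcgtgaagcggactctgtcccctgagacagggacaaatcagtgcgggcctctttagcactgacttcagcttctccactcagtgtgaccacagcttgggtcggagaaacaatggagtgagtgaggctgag
Plin5: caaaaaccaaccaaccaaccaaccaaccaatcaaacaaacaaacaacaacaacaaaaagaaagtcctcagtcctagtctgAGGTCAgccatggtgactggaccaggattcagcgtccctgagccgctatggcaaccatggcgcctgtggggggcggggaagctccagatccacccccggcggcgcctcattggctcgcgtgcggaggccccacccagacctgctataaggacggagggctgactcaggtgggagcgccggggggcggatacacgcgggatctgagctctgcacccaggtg
Plin2: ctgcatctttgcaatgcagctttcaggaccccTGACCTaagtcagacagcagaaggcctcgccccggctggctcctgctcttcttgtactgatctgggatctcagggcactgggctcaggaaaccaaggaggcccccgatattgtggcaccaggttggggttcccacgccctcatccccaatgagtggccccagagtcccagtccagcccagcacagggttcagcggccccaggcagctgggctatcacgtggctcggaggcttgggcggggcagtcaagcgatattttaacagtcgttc
The C/EBP letters began at -187 and -58 from the Plin1 start and at -198 from the Cidec start, and AGGTCA began at -170 from the Plin5 start and at -218 from the Plin2 start. The search covered 11 RefSeq windows of 9 of the 10 genes, on both strands of each. The upstream start of Cidec held neither motif, the downstream start of Plin5 held AGGTCA at 14, Abhd5 held it at -69, and the windows of Plin3, Plin4, G0s2 and Pnpla2 held neither. Of all 32851 windows of this length, 10.8% held TTGCNNAA and 16.3% held AGGTCA. A full tandem repeat AGGTCANAGGTCA was in 0.0396% of all windows and in none of these 11. The motifs shown were kept from a wider search of these windows, so the matches are a description and not sites of binding.

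Liraglutide libraries held 17133476 to 18244579 counts and model libraries 15033631 to 16622716, without overlap. Over all 12963 tested genes, 1371 passed an adjusted p under 0.05 (10.6%; edgeR quasi-likelihood test with Benjamini-Hochberg adjustment), 745 of them higher with liraglutide (5.75%) and 626 lower (4.83%), and this is what a call means throughout. Scaled by raw library totals, the split was 359 higher and 1270 lower, and with an offset for gene length it was 827 higher and 355 lower. In 2370 genes (18.3%) the normalised counts of the groups did not overlap. The muscle identity of the libraries was plain, with the 11 muscle fibre markers summing to 163145 to 174461 CPM (counts scaled to the library total) in liraglutide muscle and 160133 to 163247 CPM in model muscle, 4 of them called higher and none lower. Transcripts of other tissues were present: hepatocyte markers reached 519 CPM in model replicate 3 against at most 21.2 CPM in every other library. Of 6 epididymis markers, 5 were called lower with liraglutide. The 6 summed to 31.3 to 51.7 CPM in model muscle, against 1.89, 146, 0.452 and 0.642 CPM in liraglutide replicates 1 to 4. Liraglutide replicate 2 held the epididymis transcript Crisp1 at 102 FPKM (counts scaled to gene length and library total), so values without it and model replicate 3 are given where they change a call. Leaving out these 2 does not remove the epididymis difference between the other libraries. Across genes, a library's deviation from the mean of all 8 correlated with gene length at r = -0.16 to 0.019 in liraglutide libraries and 0.021 to 0.14 in model libraries, and with GC content at 0.12 to 0.15 in liraglutide libraries and -0.20 to -0.098 in model libraries.

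Fat cell transcripts also differed between the groups. The 9 adipocyte markers were all detected and summed to 2663 to 3722 CPM in liraglutide muscle and 3972 to 5012 CPM in model muscle, with no overlap. Without Car3, which muscle also expresses, the sums were 717 to 1020 CPM with liraglutide and 1162 to 1846 CPM in the model group. Much of this sum was Fabp4, with 8358 of 13397 counts in liraglutide replicate 1 and 15926 of 29254 in model replicate 1. Fabp4 was not called (edgeR adjusted p = 0.0699). Of the 9, 3 were called lower (Lep, Slc7a10 and Adipoq) and none higher, and none was at 0 in any library. Brown adipocyte markers summed to only 3.62 to 5.15 CPM with liraglutide and 6.49 to 9.91 CPM in model muscle, and Ucp1, the thermogenic protein that defines brown fat, never passed 0.111 FPKM. In whole tissue, fewer fat cells and less RNA per fat cell cannot be told apart. The part of the adipocyte transcripts, and of transcripts from other tissues, in the differences below was not tested.

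Among the 10 droplet genes, 1 was called lower with liraglutide (Plin2), 1 was called higher (Plin3) and 8 were not called. Over all tested genes, 4.83% were called lower and 5.75% higher, so these counts stand near the share of all genes. In Plin2, Plin3 and Cidec the normalised counts of the groups did not overlap, beside 18.3% of all tested genes. The median log2 fold change was -0.18 over the 10 genes, beside -0.01 over all tested genes. The largest estimated differences were those of Cidec and Plin1, the fat cell droplet genes, and neither passed the test. The estimates of perilipins that muscle fibres use lay on both sides of 0, Plin5 at 0.18 and Plin3 at 0.29, against Plin2 at -0.49 and Plin4 at -0.15. Pnpla2, which fibres also use, stood at 0.15.

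**Figure D1:**
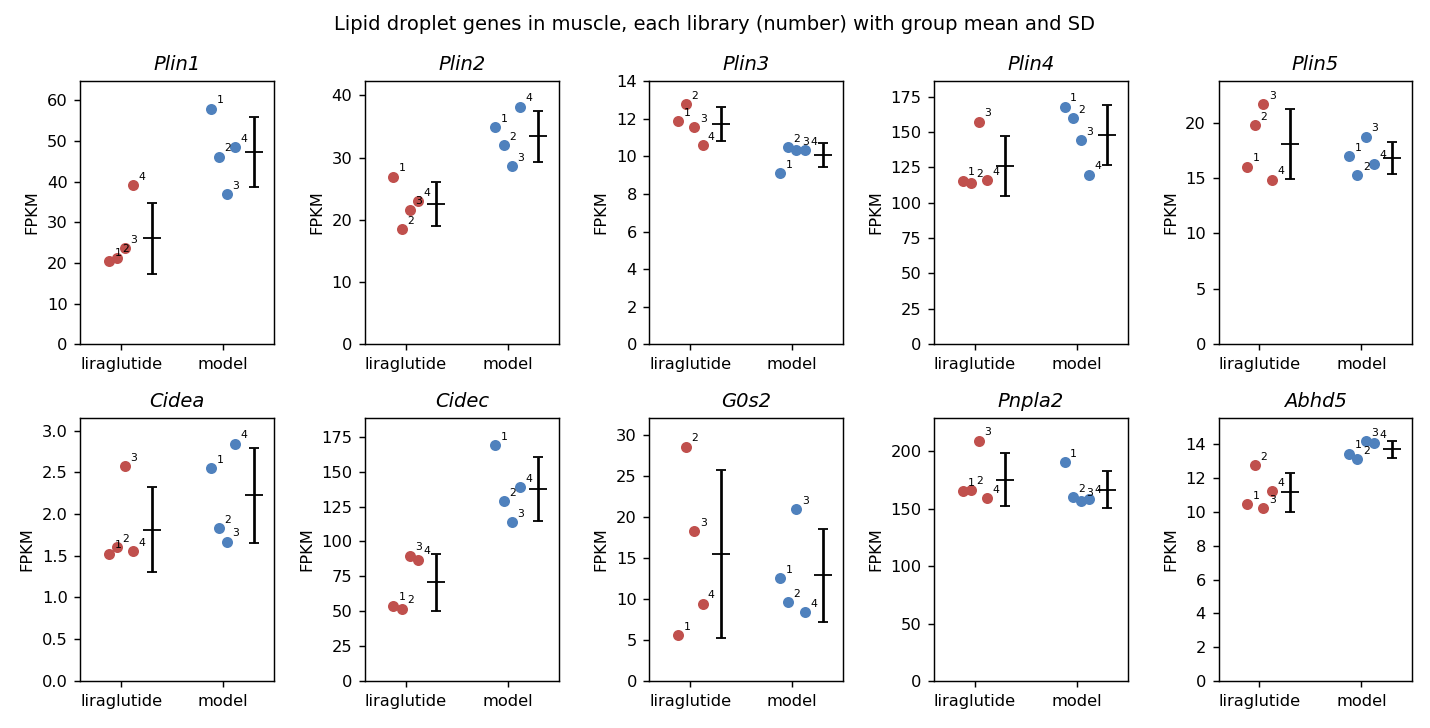
FPKM of the 10 droplet genes in each library (points, numbered by replicate) with the group mean and SD (bar), liraglutide left of model, each panel with its own axis from 0. Cidec lay at 51.9 to 89.7 FPKM in liraglutide muscle and 114 to 169 FPKM in model muscle, while Plin5 and Pnpla2 overlapped between the groups.

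Per length of gene, the most abundant transcript was that of the lipase. Mean FPKM in liraglutide muscle ran from Pnpla2 (175) through Plin4 (126), Cidec (70.6), Plin1 (26.1), Plin2 (22.5), Plin5 (18.1), G0s2 (15.5), Plin3 (11.7) and Abhd5 (11.2) to Cidea (1.81). Neighbours from Plin1 to Abhd5 had overlapping ranges over the 4 libraries, while Pnpla2, Plin4 and Cidec each stood clear of the next gene. In model muscle, mean FPKM ran from Pnpla2 (167), Plin4 (148) and Cidec (138) through Plin1 (47.4), Plin2 (33.4), Plin5 (16.8), Abhd5 (13.7), G0s2 (12.9) and Plin3 (10.1) to Cidea (2.22). There Pnpla2, Plin4 and Cidec overlapped with each neighbour among themselves while Cidec stood clear of Plin1, and ranges also overlapped for Plin1 with Plin2 and the run from Abhd5 through G0s2 to Plin3. The first 6 places and the last were the same in both groups.

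Plin1, the phosphorylated gatekeeper coat of the fat cell droplet, measured 20.4, 21.2, 23.7 and 39.1 FPKM in liraglutide replicates 1 to 4, against 57.9, 46.1, 36.9 and 48.5 FPKM in model replicates 1 to 4. Liraglutide replicate 4 lay inside the model range, and the other 3 lay below every model library. The means were 26.1 ± 8.77 FPKM with liraglutide and 47.4 ± 8.62 FPKM in model muscle (SD, n = 4 each). The fitted log2 fold change was -0.79 (SE 0.25, 95% interval -1.37 to -0.20), with an edgeR adjusted p of 0.0988, which missed the threshold. Without robust estimation of the spread, edgeR gave the same fold change with an adjusted p of 0.0418, and without liraglutide replicate 4, the library inside the model range, it was -1.04 with an adjusted p of 0.00483. Leaving out any other library gave an adjusted p of 0.105 to 0.212. Plin1 was called in 5 of 20 alternatives.

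Cidec, the droplet fusion protein also known as FSP27, had the largest estimated difference of the 10. Its levels were 54.0, 51.9, 89.7 and 86.8 FPKM in liraglutide replicates 1 to 4, against 169, 129, 114 and 139 FPKM in model replicates 1 to 4. Every liraglutide library lay below every model library, although liraglutide replicates 3 and 4 stood well above replicates 1 and 2. The mean was 70.6 ± 20.4 FPKM with liraglutide and 138 ± 23.2 FPKM in model muscle (SD, n = 4 each). The log2 fold change was -0.88 (SE 0.24, 95% interval -1.46 to -0.31) and the edgeR adjusted p was 0.0685. Without robust estimation the adjusted p was 0.0223, and with DESeq2 it was 0.00628. Leaving out any 1 library gave an edgeR adjusted p of 0.0679 to 0.149, and Cidec was called in 5 of 20 alternatives. A RefSeq locus, Gm52871, overlaps Cidec, and whether the counting used strand is not given in the sources used here.

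Cidea, the CIDE family member of brown fat and of white fat cells that take on brown features, was scarce. It had 31 to 53 counts with liraglutide and 32 to 55 in model muscle. The 4 liraglutide libraries stood at 1.52, 1.60, 2.57 and 1.55 FPKM and the 4 model libraries at 2.55, 1.83, 1.67 and 2.84 FPKM. The ranges lay almost on top of each other, and the log2 fold change of -0.21 had a 95% interval of -0.78 to 0.35 (edgeR adjusted p = 0.656). A locus, B430212C06Rik, overlaps this gene as well.

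Plin2, the coat that appears on droplets of nearly every cell type and rises with lipid load, fell. It measured 26.9, 18.5, 21.6 and 23.0 FPKM in liraglutide replicates 1 to 4, against 34.9, 32.0, 28.6 and 38.2 FPKM in model replicates 1 to 4. No liraglutide library reached the lowest model library. The mean was 22.5 ± 3.49 FPKM with liraglutide and 33.4 ± 4.09 FPKM in model muscle (SD, n = 4 each). This was a log2 fold change of -0.49 (SE 0.12, 95% interval -0.77 to -0.22), or 28.9% lower at the fitted value, with an edgeR adjusted p of 0.0357. The call was lost without liraglutide replicate 3 (adjusted p = 0.0937) or 4 (0.0704), and without model replicate 1 (0.0965), 2 (0.0748) or 4 (0.0829), with the fold change between -0.51 and -0.42 in those 5 fits. Macrophages also make Plin2. Their 6 markers summed to 197, 115, 121 and 118 CPM in liraglutide replicates 1 to 4, and to 166 to 194 CPM in model muscle. Only liraglutide replicate 1 reached the model range. None of the 6 was called, but all 6 estimates lay below 0 (median log2 fold change -0.41). The part of macrophages in the Plin2 difference was not tested. The locus Gm12551 overlaps Plin2.

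Plin3, a cytosolic perilipin that moves onto newly formed droplets, rose by a small amount. Its levels were 11.9, 12.8, 11.5 and 10.6 FPKM in liraglutide replicates 1 to 4, against 9.12, 10.5, 10.3 and 10.3 FPKM in model replicates 1 to 4. The lowest liraglutide library stood just above the highest model library. The mean was 11.7 ± 0.909 FPKM with liraglutide and 10.1 ± 0.643 FPKM in model muscle (SD, n = 4 each). The log2 fold change was 0.29 (SE 0.078, 95% interval 0.12 to 0.46), 22.5% higher at the fitted value, with an edgeR adjusted p of 0.0357. Scaling by raw library totals lowered it to 0.22 and ended the call (adjusted p = 0.0938), as did leaving out any library other than liraglutide replicate 4 (adjusted p 0.0612 to 0.103) or leaving out liraglutide replicate 2 and model replicate 3 together (0.123).

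Plin5, the perilipin of oxidative tissue that joins droplets to mitochondria, had overlapping levels. It stood at 16.0, 19.8, 21.7 and 14.8 FPKM in liraglutide replicates 1 to 4, against 17.0, 15.2, 18.7 and 16.3 FPKM in model replicates 1 to 4. The liraglutide libraries spanned the whole model range. The means were 18.1 ± 3.18 FPKM with liraglutide and 16.8 ± 1.46 FPKM in model muscle (SD, n = 4 each). The log2 fold change of 0.18 had a 95% interval of -0.095 to 0.46 (edgeR adjusted p = 0.394), which does not reach the estimates of Plin1, Cidec or Plin2.

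Plin4, a perilipin of fat cells and striated muscle that coats small droplets, was the most abundant coat transcript. Its levels were 116, 114, 157 and 116 FPKM in liraglutide replicates 1 to 4, against 168, 160, 144 and 120 FPKM in model replicates 1 to 4. Liraglutide replicate 3 stood far above the other 3 liraglutide libraries and within the model range. The log2 fold change was -0.15 (95% interval -0.51 to 0.21, edgeR adjusted p = 0.585). Hdgfl2 overlaps Plin4 in RefSeq.

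Pnpla2, the lipase itself, was the transcript with the highest FPKM of the 10 in both group means. It measured 165, 167, 209 and 159 FPKM in liraglutide replicates 1 to 4, against 190, 160, 157 and 159 FPKM in model replicates 1 to 4. The groups overlapped almost fully, with a single high library in each. Its log2 fold change was 0.15 (95% interval -0.088 to 0.39, edgeR adjusted p = 0.411).

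Abhd5, the coactivator of Pnpla2, stood at 10.5, 12.8, 10.2 and 11.2 FPKM in liraglutide replicates 1 to 4, against 13.4, 13.1, 14.2 and 14.1 FPKM in model replicates 1 to 4. Each liraglutide library was below each model library in FPKM, but the ranges met once counts were normalised by TMM. The log2 fold change was -0.22 (SE 0.068, 95% interval -0.37 to -0.071), with an edgeR adjusted p of 0.0631. Without liraglutide replicate 2 it was -0.28 with an adjusted p of 0.0159, without liraglutide replicate 2 and model replicate 3 the adjusted p was 0.0407, and with an offset for gene length and GC content the change shrank to -0.11 (adjusted p = 0.379).

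G0s2, the small inhibitor of Pnpla2, varied most from animal to animal. It measured 5.56, 28.6, 18.3 and 9.42 FPKM in liraglutide replicates 1 to 4, against 12.6, 9.63, 21.0 and 8.42 FPKM in model replicates 1 to 4. The liraglutide libraries held both the lowest and the highest value of the 8. Its log2 fold change of 0.34 had a 95% interval of -1.02 to 1.69 (edgeR adjusted p = 0.767), and without liraglutide replicate 2 it turned to -0.12.

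**Figure D2:**
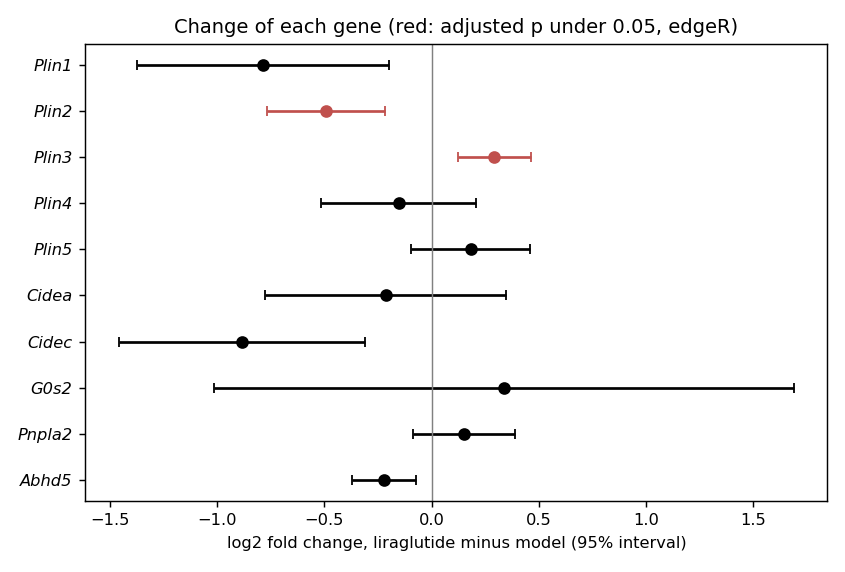
Log2 fold change, liraglutide minus model, of each droplet gene (point) with its 95% interval (bar) from the edgeR fit, red where the adjusted p was under 0.05. Plin2 at -0.49 and Plin3 at 0.29 are red, Cidec at -0.88 and Plin1 at -0.79 lie lowest, and G0s2 has the widest interval, from -1.02 to 1.69.

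The lipase and its regulators were set against each other within each library. G0s2 stood at 3.37 to 17.1 FPKM per 100 FPKM of Pnpla2 in liraglutide muscle and 5.30 to 13.4 in model muscle. For Abhd5 the range was 4.87 to 7.66 per 100 FPKM of Pnpla2 with liraglutide and 7.06 to 9.07 in model muscle, so the groups overlapped slightly. Plin5, which can bind both Pnpla2 and Abhd5, stood at 9.31 to 11.8 and 8.90 to 11.9 FPKM per 100 FPKM of Pnpla2 in liraglutide and model muscle, which is nearly the same range.

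The adipocyte droplet genes were compared with the muscle droplet genes as 4 ratios of counts within a library, which need no scaling between libraries. All 4 group means were lower with liraglutide, by more against Plin5 than against Plin2. None passed after adjustment over the 4. With 4 against 4 libraries there are 70 assignments, and no two-sided exact p can go below 0.0286. The log2 ratio of Cidec to Plin5 was 1.54, 1.18, 1.83 and 2.33 in liraglutide replicates 1 to 4, against 3.10, 2.86, 2.39 and 2.88 in model replicates 1 to 4. All 4 liraglutide libraries lay below all 4 model libraries. The difference of the means was -1.09 (exact permutation p = 0.0286, two-sided, 0.114 after Benjamini-Hochberg adjustment over the 4 ratios).

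The log2 ratio of Plin1 to Plin5 was 0.26, 0.014, 0.038 and 1.31 in liraglutide replicates 1 to 4, against 1.68, 1.51, 0.89 and 1.48 in model replicates 1 to 4. Liraglutide replicate 4 was inside the model range. The means were 0.40 ± 0.612 with liraglutide and 1.39 ± 0.345 in model muscle (SD, n = 4 each), a difference of -0.99 (exact permutation p = 0.0571, two-sided, adjusted 0.114). Against Plin2 the differences were smaller and the groups overlapped. Plin1 to Plin2 averaged -0.33 ± 0.478 with liraglutide and -0.0041 ± 0.179 in model muscle on the log2 scale, a difference of -0.32 (exact permutation p = 0.286, two-sided, n = 4 each, adjusted 0.286). Cidec to Plin2 averaged 0.99 ± 0.473 with liraglutide and 1.41 ± 0.172 in model muscle, a difference of -0.42 (exact permutation p = 0.2, two-sided, n = 4 each, adjusted 0.267).

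**Figure D3:**
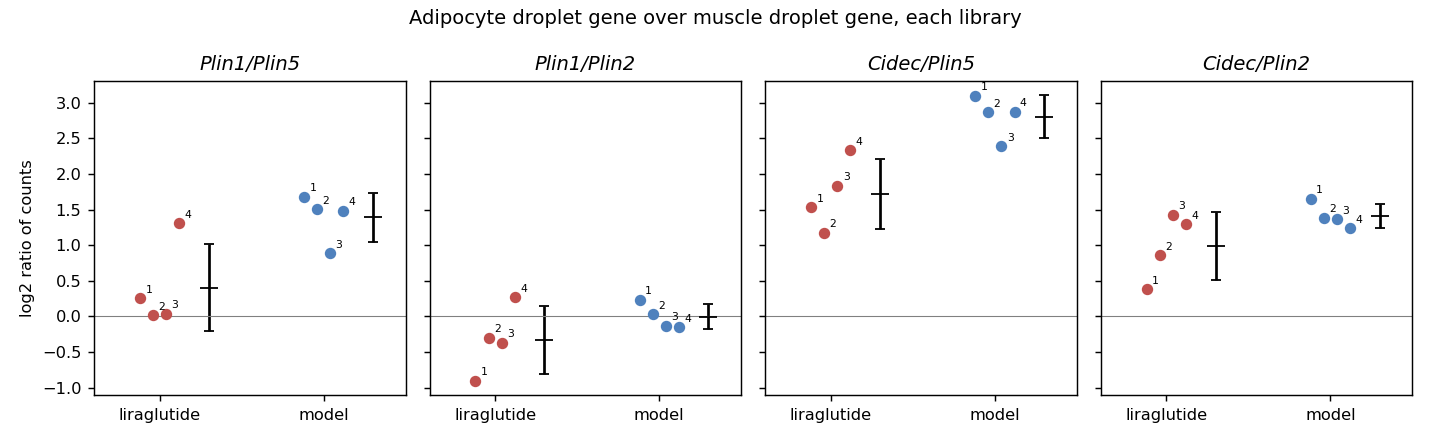
Log2 ratio of counts of an adipocyte droplet gene to a muscle droplet gene in each library (points, numbered by replicate) with the group mean and SD (bar), liraglutide left of model. Cidec to Plin5 separates the groups, with liraglutide libraries from 1.18 to 2.33 and model libraries from 2.39 to 3.10, while both ratios to Plin2 overlap.

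The fat cell hormone gene Adipoq, called lower with liraglutide (log2 fold change -0.89, edgeR adjusted p = 0.0348), measured 86.6, 77.9, 104 and 126 FPKM in liraglutide replicates 1 to 4, against 234, 194, 147 and 194 FPKM in model replicates 1 to 4. Its call was itself lost without liraglutide replicate 1, 2 or 3, or model replicate 1, 2 or 4 (adjusted p 0.0676 to 0.0848). The Adipoq call was also lost without a filter (0.0542), with the length and GC offset (0.0796) and with replicate number as a block (0.113). Set against Adipoq in the same library, a measure chosen after its values were seen, the fat cell droplet genes had overlapping ranges. Plin1 stood at 26.2 ± 3.82 FPKM per 100 FPKM of Adipoq with liraglutide and 24.6 ± 0.643 in model muscle, and Cidec at 71.2 ± 10.6 with liraglutide and 71.9 ± 4.54 in model muscle (SD, n = 4 each). These ratios rest on the choice of Adipoq, whose estimate is close to those of Plin1 and Cidec, while other adipocyte markers differed more or less, from Lep at a log2 fold change of -1.59 to Cfd at 0.20, which was not called (edgeR adjusted p = 0.691). Plin2 ran from 18.3 to 31.1 per 100 FPKM of Adipoq with liraglutide and from 14.9 to 19.7 in model muscle. Plin3 and Pnpla2 stood higher against Adipoq with liraglutide, Plin3 at 8.44 to 16.4 with liraglutide and 3.89 to 7.04 in model muscle, and Pnpla2 at 127 to 214 and 81.2 to 107, without overlap in either. Because Adipoq was itself lower with liraglutide, a gene that did not change would also stand higher against it. Pnpla2 was not called on its own (log2 fold change 0.15, edgeR adjusted p = 0.411), so its ratio does not show a rise of Pnpla2.

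**Figure D4:**
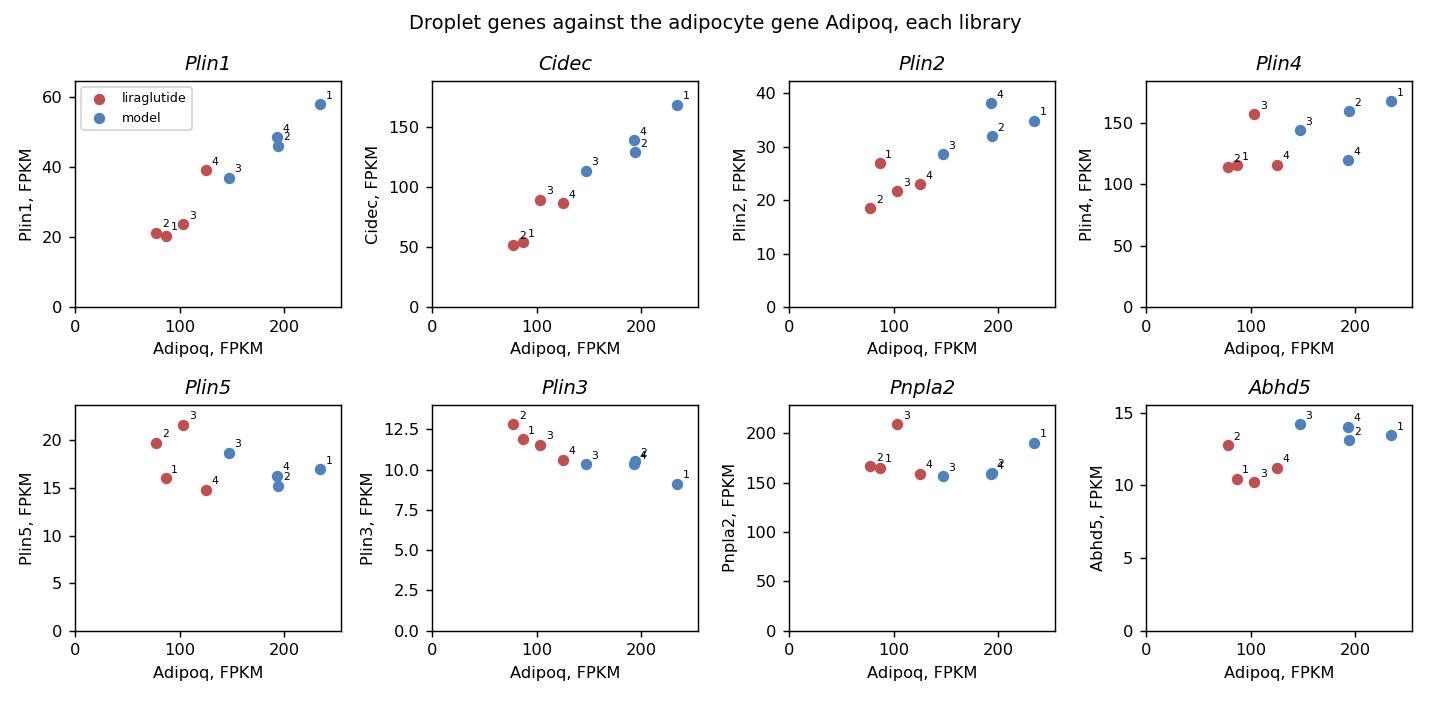
FPKM of 8 droplet genes (vertical axes) against FPKM of the adipocyte gene Adipoq (horizontal axes) in each library, red for liraglutide and blue for model, numbered by replicate. Plin1 and Cidec climb with Adipoq over its range of 77.9 to 234 FPKM, while Plin5 and Pnpla2 overlap between the groups.

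The share of each perilipin transcript in the summed FPKM of the 5 was computed from these levels. These are shares of whole-tissue RNA, and the protein coat of droplets was not measured. The 5 perilipins summed to 191, 187, 236 and 203 FPKM in liraglutide replicates 1 to 4, against 287, 263, 239 and 233 FPKM in model replicates 1 to 4. Liraglutide replicate 3, with its high Plin4, was the only liraglutide library inside the model range. Plin4 made up 57.0% to 66.7% of the sum with liraglutide and 51.4% to 60.6% in model muscle, and Plin1 averaged 12.8% ± 4.29 with liraglutide and 18.5% ± 2.47 in model muscle (SD, n = 4 each). Plin5 held 7.29% to 10.6% of the sum with liraglutide and 5.78% to 7.84% in model muscle. Plin3 was the only perilipin whose share did not overlap, at 4.90% to 6.86% with liraglutide and 3.18% to 4.44% in model muscle.

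In the rest of the lipolysis pathway, calls were made in a single direction. Of 16 listed, 15 were tested, none was called higher and 6 were called lower (4.83% over all tested genes), with a median log2 fold change of -0.35. Adipocyte markers, whose sums did not overlap between the groups, moved the same way, their part was not tested, and the list shares Adrb3 with them. The strongest was Pnpla3, a droplet-bound relative of Pnpla2, at 1.71, 1.37, 1.30 and 2.65 FPKM in liraglutide replicates 1 to 4, against 5.33, 4.38, 6.39 and 5.39 FPKM in model replicates 1 to 4 (log2 fold change -1.54, edgeR adjusted p = 0.00479). Lipa, the acid lipase of the lysosome, fell by 0.75 on the log2 scale (adjusted p = 0.00665). The other 4 sit on the cyclic AMP arm that switches lipolysis on and off: the phosphodiesterase Pde3b (-0.90), the protein kinase A subunits Prkar2b (-1.07) and Prkacb (-0.21), and the inhibitory G protein subunit Gnai1 (-0.74). The next lipases after Pnpla2 were not called: Lipe, the hormone-sensitive lipase, had a log2 fold change of -0.41 (adjusted p = 0.129), and Mgll, the monoglyceride lipase, of -0.47 (adjusted p = 0.0693). The count of 6 dropped to 3 without liraglutide replicate 1 or model replicate 1, to 2 without liraglutide replicate 3, model replicate 2 or model replicate 4, and to 3 with an offset for gene length and GC content. Without liraglutide replicate 2 and model replicate 3 it was again 6, with Mgll called (adjusted p = 0.0286) and Prkar2b not (0.115).

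Genes that make triglyceride and build the droplet were called in both directions. Of 16 listed, 14 were tested, 2 were called higher and 3 lower (5.75% and 4.83% over all tested genes), with a median log2 fold change of -0.10. The triglyceride synthases fell, Dgat2 to 28.8 ± 4.19 FPKM with liraglutide against 52.2 ± 6.14 FPKM in model muscle, and Dgat1 to 5.06 ± 0.553 FPKM against 7.80 ± 0.775 FPKM (SD, n = 4 each; log2 fold changes -0.78 and -0.55, edgeR adjusted p = 0.00425 and 0.00560). Bscl2, which encodes seipin at the site where droplets bud, fell by 0.47 on the log2 scale (adjusted p = 0.0151). Fitm1, the muscle form of the fat-inducing transmembrane protein that partitions triglyceride into droplets, rose to 149 ± 6.47 FPKM with liraglutide against 129 ± 3.32 FPKM in model muscle (log2 fold change 0.29, adjusted p = 0.00416). Aup1, a droplet and endoplasmic reticulum protein, was called higher at 0.20 (adjusted p = 0.0374). With an offset for gene length and GC content neither was called higher (adjusted p = 0.251 for Fitm1 and 0.354 for Aup1). The Aup1 call was also lost with raw library totals (0.138), in both limma fits (0.108 and 0.110), with the length offset (0.0569), without any library other than liraglutide replicate 4 (0.0536 to 0.0999), and without liraglutide replicate 2 and model replicate 3 together (0.0833).

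The transcription factors that drive these genes were examined next. Of 9 nuclear receptors and cofactors, all tested, none was called higher and 2 were called lower (4.83% over all tested genes), and the median log2 fold change was 0.17. The 2 were factors of the fat cell programme: Pparg at 3.86, 2.74, 3.23 and 4.16 FPKM in liraglutide replicates 1 to 4, against 6.81, 5.74, 4.07 and 5.96 FPKM in model replicates 1 to 4 (log2 fold change -0.62, edgeR adjusted p = 0.0473), and Cebpa (log2 fold change -0.48, adjusted p = 0.0204). The lowest model library for Pparg lay just inside the liraglutide range. Ppard, the main PPAR of muscle, had a log2 fold change of 0.35 (adjusted p = 0.0552) and Ppara of -0.0089. The Pparg call was lost without any library other than liraglutide replicate 4 or model replicate 3 (adjusted p at least 0.0708). It was also lost without a filter, with the length offset, and with the length and GC offset, where Cebpa was the 1 gene called lower. The Cebpa call was lost without liraglutide replicate 2 (0.0575), without model replicate 1 (0.0541) or 4 (0.0568), and with replicate number as a block (0.0606). With the length offset, 2 of the 9 were called higher. Of 8 PPAR target genes of muscle, 1 was called higher and none lower, beside 5.75% and 4.83% of all tested genes. The 1 was Cpt1b, the gate of fatty acid entry into mitochondria (log2 fold change 0.19, edgeR adjusted p = 0.0314). The Cpt1b call was lost with raw library totals (0.115), in both limma fits (0.126 and 0.127), with the length and GC offset (0.114), without liraglutide replicate 1 (0.0585) or 3 (0.0545), without model replicate 1 (0.0960), 3 (0.0686) or 4 (0.0810), and without liraglutide replicate 2 and model replicate 3 together (0.0674). The other PPAR targets included Angptl4, an inhibitor of lipoprotein lipase, at -0.46 (adjusted p = 0.168) and Pdk4, the brake on pyruvate oxidation, at -0.08 (adjusted p = 0.661).

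**Figure D5:**
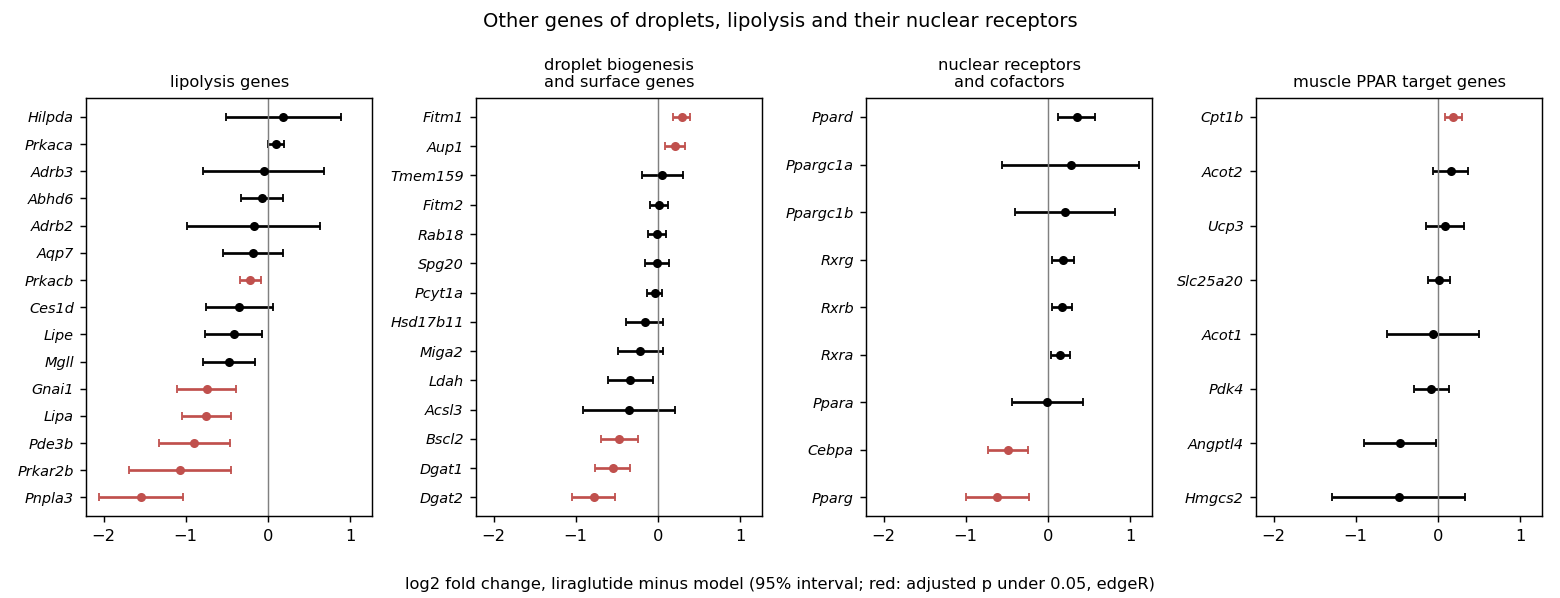
Log2 fold change, liraglutide minus model, with 95% interval for the tested genes of the 4 other lists, red where the edgeR adjusted p was under 0.05. Lipolysis genes lie mostly left of 0 with Pnpla3 lowest at -1.54, Dgat2 at -0.78 and Pparg at -0.62 are the lowest of their lists, and Fitm1 at 0.29, Aup1 at 0.20 and Cpt1b at 0.19 are the red genes on the right.

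Genes that varied from animal to animal most like the 4 compared genes were ranked by Pearson r of log2 CPM over the 8 libraries after each group's mean was subtracted, among 10173 genes. With so few points high values are common, and the libraries share their depth and tissue mix. For Plin1 the nearest genes were Retn (r = 0.982), which encodes the adipokine resistin, Sncg (0.973), Aifm2 (0.973), Pcyt2 (0.970) and Mest (0.969). For Cidec they included Rbm27 (0.954), Npr3 (0.952), the fatty acid transporter Cd36 (0.944) and Topbp1 (0.938). For Plin5 they were Fastk (0.980), the muscle ring finger gene Trim54 (0.971), Dnajb12 (0.963), Dnaja3 (0.962) and Slc39a9 (0.962), and for Plin2 Tmem251 (0.975), Cd44 (0.967), Epha2 (0.965), Pnrc1 (0.964) and St13 (0.961). By the same measure Plin1 and Cidec varied together (r = 0.77), Plin4 went with Pnpla2 (0.84) and Plin5 with G0s2 (0.79), while Plin2 ran opposite to G0s2 (-0.90) and Plin1 opposite to Plin3 (-0.85).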

How the data were processed

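The authors deposited, per the file headers, a raw count and an FPKM value for each gene in each of 8 libraries of polyadenylated, stranded skeletal muscle RNA. Per the submitters' processing notes, Trimmomatic, HISAT2, Cufflinks, HTSeq and DESeq were named, without versions. They also name build GRCh38 although the genes are mouse, so the build is unsettled and only RefSeq windows carry coordinates. The deposited FPKM equalled count over library total and a whole-number gene length for 17484 of 17484 genes with a count (within 0.01 base).

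Counts were tested with edgeR 4.0.16 in R 4.3.3: TMM scaling, filterByExpr (minimum count 10), robust quasi-likelihood fit, and Benjamini-Hochberg adjustment over 12963 genes. Fold changes are liraglutide minus model on the log2 scale, and FPKM was used for levels. Ratios had 0.5 added to each count and were compared by exact permutation. The code was checked on simulated counts. Alternatives used DESeq2 1.42.0, limma 3.58.1 on log2(FPKM + 1) and log2(FPKM + 0.1), other scalings, filters and offsets, a replicate block, and omission of each library; the fit without robust estimation and the GC offset were chosen after seeing the data. The members, lists and rules were chosen with earlier results of these data known. From each list of other genes the text names up to 5 with the smallest p and those whose role needs it; Prkar2b was named after its values were seen. A gene that the rule on similar patterns names is not reported here. Replicates were separate animals per the labels, and 1 column with a misspelt group was assigned by its animal code.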

Additional observations from a re-analysis of the deposited data

Results flagged for a closer look

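In 28 groups of 4 libraries, 5 had a highest or lowest library whose gap to the nearest other, divided by the group's whole range, passed Dixon's 95% critical value; chance alone gives about 5% of groups. Liraglutide replicate 3 stood apart in 3 of them, with 157 FPKM of Plin4, 2.57 FPKM of Cidea and 209 FPKM of Pnpla2, each above the other 3 liraglutide libraries. Model replicate 1 stood apart in the other 2, with 190 FPKM of Pnpla2, above the other 3 model libraries, and 9.12 FPKM of Plin3, below them.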

How the results depend on the processing

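Over 20 alternatives the direction of each of the 10 genes was kept in every fit, except G0s2, whose log2 fold change was -0.12 without liraglutide replicate 2 and ranged up to 0.68 without model replicate 3. The number of the 10 genes called was 2 in the edgeR fit and 4 with DESeq2 (Cidec, Plin1, Plin2, Plin3), 4 without robust estimation (the same genes), 4 with limma on log2(FPKM + 1) and 4 on log2(FPKM + 0.1) (Abhd5, Cidec, Plin1 and Plin2 in both), 3 with raw library totals (Abhd5, Cidec and Plin2) and 1 without a filter (Plin3). Leaving out a library gave 0 to 2, with 0 without liraglutide replicate 3 or model replicate 1, 2 or 4; the cause was not tested. Plin2 was called in 14, Plin3 in 9, and Plin1, Cidec and Abhd5 in 5 each of the 20 alternatives. Over all genes, 790 were called with the length and GC offset, 806 without liraglutide replicate 2 and model replicate 3, and 714 to 1325 when leaving out a library, with 714, 808 and 848 without model replicate 1, 2 or 4. Limma on log2(FPKM + 1) called 359 genes higher and 1049 lower. The 4 count ratios kept their direction in all 12 alternatives each. Across genes, log2 CPM correlated at 0.964 to 0.987 between libraries. To look for pairing, each group's mean was subtracted from log2 CPM first. These deviations correlated at 0.18, -0.04, 0.21 and 0.11 between samples with the same replicate number, 1 to 4. The highest correlation of the deviations of each liraglutide library with those of a differently numbered model library was 0.082, 0.15, 0.0043 and 0.14. The same-numbered pair was higher for numbers 1 and 3 and lower for 2 and 4, so these values cannot decide whether the numbers pair the samples. With the replicate block 1267 genes were called, and Plin2 and Plin3 stayed the droplet genes called. Cidea had the fewest counts of the 10 genes, 31 to 55 per library.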
